A study of Homo sapiens with 48 samples.

Results

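The 10 genes described here encode proteins of melanin synthesis and of the melanosome, the organelle in which pigment is made: TYR, TYRP1, DCT, PMEL, MLANA, OCA2, SLC45A2, SLC24A5, GPR143 and TRPM1. They were chosen by name, as genes of the pigment pathway, from the 58870 genes listed in the count files. Each of the 10 was found once under its Ensembl identifier.

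Gene expression was measured by RNA sequencing of poly-A RNA in 3 uveal melanoma cell lines, 92-1, MEL202 and MP41, all labelled wild type in genotype. Each line received FHT-1015, a dual inhibitor of SMARCA4 and SMARCA2 (the ATPases that drive BAF chromatin remodelling complexes), or DMSO as the negative control, for 4 h or 24 h. Line 92-1 was also treated for 4 h or 24 h with IDE196, which inhibits protein kinase C, beside a second set of DMSO libraries. There were 3 biological replicates in each of 16 groups, 48 libraries in all, and the doses are not given in the sources used here. A line and drug with its DMSO libraries at both times is called an experiment, so there were 4 experiments of 12 libraries.

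Melanin is made from tyrosine inside melanosomes, lysosome-related organelles of pigment cells. Tyrosinase (TYR) oxidises tyrosine, and its relatives dopachrome tautomerase (DCT) and TYRP1 act on later intermediates of the eumelanin branch. PMEL forms the amyloid fibrils on which melanin is laid down, and MLANA (MART-1) is a small membrane protein that binds PMEL and takes part in melanosome maturation. OCA2, SLC45A2 and SLC24A5 are membrane transporters that set the melanosome's pH and ion content, and loss of OCA2, SLC45A2 or SLC24A5 causes forms of oculocutaneous albinism. GPR143 is a G protein-coupled receptor of the melanosome membrane, lost in ocular albinism, and TRPM1 is a cation channel of melanocytes. Most of these genes are known targets of MITF, the master regulator of the pigment cell lineage, which binds E-box sequences, and of SOX10.

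Because MITF binds an E-box of the letters CATGTG in known pigment gene promoters, the promoter windows of the members were searched for it. A window ran from 250 bases before to 50 bases after a gene start in RefSeq (GRCh38.p14), and windows were found for 8 of the 10 members, 10 windows in all. PMEL and SLC45A2 were not among the genes matched. CATGTG, read on either strand (CACATG on the other), was present in 8 of the 10 windows and in 7 of the 8 members. Of 35114 windows of this length over all genes, 11.1% held it. The 12 matches are shown because they are the stretches the members' promoters have in common. Each is 30 bases on the gene's own strand, with the E-box in capitals and the position of its first base counted from the gene start.
TYR, -104, chr11:89177759-89177788, plus strand: agaaaagtcagtCATGTGcttttcagagga
TYR, -12, chr11:89177851-89177880, plus strand: tctcagccaagaCATGTGataatcactgta
TYRP1, -144, chr9:12693229-12693258, plus strand: ttggaagggaatCATGTGctgatcaagtcc
TYRP1, -11, chr9:12693362-12693391, plus strand: caggcagcaatcCACATGcacttaacagtt
DCT (the second of 2 starts), -215, chr13:94479880-94479909, minus strand: gtttggctggagCACATGagcccagataaa
DCT (the second of 2 starts), -134, chr13:94479799-94479828, minus strand: tgcactttgggtCATGTGctaatgatgagg
OCA2, -153, chr15:28099451-28099480, minus strand: tgtgggcggggcCATGTGggcagctttgtg
SLC24A5, -15, chr15:48120963-48120992, plus strand: aaggagactcctCACATGatccagtttaat
GPR143, -61, chrX:9765891-9765920, minus strand: agaggcccagggCACATGatgccgccccca
GPR143, -33, chrX:9765863-9765892, minus strand: cagcccgcccagCACATGacccaggcaggc
TRPM1 (the first of 2 starts), -8, chr15:31161151-31161180, minus strand: accaaaagccagCACATGctcctcctaggc
TRPM1 (the second of 2 starts), -56, chr15:31101764-31101793, minus strand: ggcccaagtgctCACATGctcctcatgggg

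In 7 of these 12 matches, from 5 members (TYR, TYRP1, DCT, SLC24A5 and GPR143), the base before CATGTG, read in the direction of the E-box, was a T. The longer word TCATGTG was present in 2.92% of the windows over all genes, and it was searched for after the 12 matches had been read. MLANA and the first DCT start held no CATGTG in their windows. The window of the first DCT start, chr13:94549357-94549656, lies outside the GENCODE span of DCT. Its last 50 bases were in no GENCODE transcript of the gene. CACGTG, the other common E-box, was in no member's window, and either E-box was in 17.6% of all windows. The SOX words ACAAAG and ACAATG, on either strand, were in 3 windows (OCA2, SLC24A5 and the second TRPM1 start), against 24.5% of all windows. A match of letters is a description of the sequence and does not show that a factor binds there.

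The members lie at these GRCh38 positions in GENCODE release 29, and all are protein-coding. The enzyme genes are TYR at chr11:89177452-89295759, TYRP1 at chr9:12685439-12710290 and DCT at chr13:94436808-94479682. PMEL is at chr12:55954105-55973317 and MLANA at chr9:5890802-5910606. The transporters are OCA2 at chr15:27754875-28099358, SLC45A2 at chr5:33944616-33984730 and SLC24A5 at chr15:48120972-48142672. GPR143 is at chrX:9725346-9786297 and TRPM1 at chr15:31001061-31161273, with the microRNA gene MIR211 inside it. The libraries do not keep the strand, so reads in shared exon bases cannot be assigned. SLC24A5 shares 32.9% of its exon bases with MYEF2, while the shares were 4.48% for TRPM1, 2.73% for TYRP1 and 2.28% for PMEL (with CDK2). TYR shares no exon bases, but 3.5% of its 75-base stretches are also found in its pseudogene TYRL.

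Each library held between 11394088 and 32317711 reads in genes, with a median of 19996476.5, and reads are not independent molecules. The spread between replicates differed between experiments. The biological coefficient of variation was 0.117 for FHT-1015 and 0.112 for IDE196 in 92-1, 0.217 in MP41 and 0.294 in MEL202. The fewest genes with a read, 17592, were in MEL202 at 4 h of FHT-1015, replicate 2. Of 8 melanocyte lineage markers that are not members (MITF, SOX10, PAX3, S100B, ERBB3, MC1R, KIT and EDNRB), 6 in 92-1, 7 in MEL202 and 8 in MP41 averaged at least 1 CPM in DMSO. The exceptions were S100B and KIT in 92-1 and KIT in MEL202. Markers of other cells were low in the FHT-1015 experiments: summed CPM per library reached 43.6 over 6 fibroblast markers, 4.7 over 4 epithelial, 4.29 over 4 endothelial and 6.21 over 5 leukocyte markers. Of 6 markers of the retinal pigment epithelium (RPE65, RLBP1, LRAT, TTR, RGR and BEST1), 2 in 92-1 and MEL202 and 3 in MP41 averaged at least 1 CPM in DMSO. RPE65 and RGR were under 1 CPM in DMSO in each experiment. With FHT-1015, 3 markers averaged at least 1 CPM in each line, and with IDE196 4 did, all but RPE65 and TTR. The sum over the 6 was not tested between treatments. Its ranges in drug and DMSO libraries, both times together, overlapped except with FHT-1015 in 92-1. It ran from 26.9 to 33.1 CPM in DMSO and 1.95 to 18.2 with FHT-1015 in 92-1, from 34.4 to 73.5 and 10.1 to 53.8 in MEL202, and from 8.78 to 23.1 and 6.04 to 12.8 in MP41. With IDE196 it was 12.8 to 48.1 CPM against 11.4 to 16.8 in DMSO. Part of the sum was BEST1, a channel of that epithelium, at 25.2 ± 2.33 CPM in DMSO and 0.846 ± 0.227 with FHT-1015 in 92-1 at 24 h. In the IDE196 experiment the epithelial sum ran from 2.42 to 18.5 CPM in DMSO and from 2.82 to 25 CPM with IDE196. The part of either list in the results was not tested.

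TYRP1 and PMEL were the most abundant members in DMSO in each line. Levels of different genes are compared here as FPKM, reads scaled to library size and exon length, and levels of 1 gene as CPM, reads scaled to library size alone. In the 6 DMSO libraries of the FHT-1015 experiment of 92-1, TYRP1 stood at 2216 to 2909 FPKM and PMEL at 2288 to 2592, and the ranges overlapped. MLANA followed at 155 to 195 FPKM, TYR at 94.7 to 142, GPR143 at 67.5 to 75.5 and SLC45A2 at 34.3 to 44.1, each range clear of the next. OCA2 (11.8 to 15.4 FPKM) and TRPM1 (9.92 to 16.5) overlapped, SLC24A5 was lower at 4.58 to 8.18, and DCT was lowest at 0.644 to 1.13. The 10 members together took 1.89% to 2.08% of the reads of these libraries, nearly all from TYRP1 and PMEL, which alone took 1.76% to 1.94%.

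**Figure D1:**
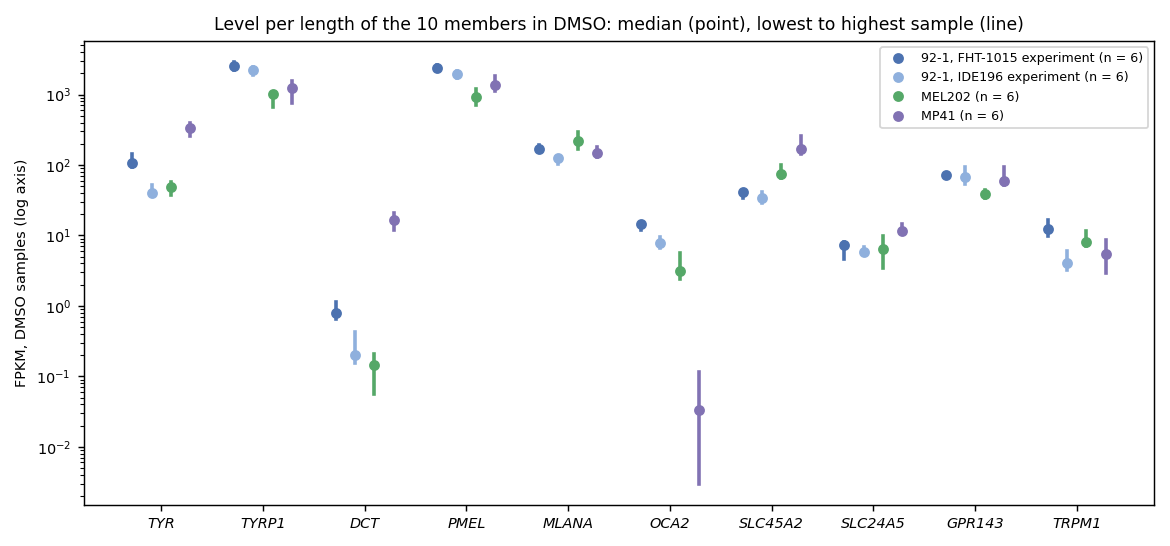
FPKM of the 10 members (log axis) in the 6 DMSO libraries of each set, both times together, as the median (point) and the lowest to highest library (line). TYRP1 and PMEL lead in each set, DCT is highest in MP41 (11.8 to 20.5 FPKM), and the OCA2 line of MP41 runs down to 0, drawn at 0.003.

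The order differed between the lines in a few places. In MEL202, TYRP1 (661 to 1082 FPKM) and PMEL (719 to 1211) again overlapped at the top, and DCT was again lowest at 0.0556 to 0.211. TYR (37.1 to 57.7 FPKM) overlapped GPR143 (34.5 to 44.3) there, and TRPM1, SLC24A5 and OCA2 formed an overlapping run. In MP41, PMEL (1109 to 1853 FPKM) and TYRP1 (769 to 1539) overlapped, TYR followed at 261 to 399, and SLC45A2 (143 to 256) overlapped MLANA (130 to 179). OCA2 was nearly absent in MP41, with 0 to 8 reads per DMSO library, which is 0 to 0.115 FPKM.

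MP41 stood apart from the other lines in DCT, OCA2, TYR, SLC45A2 and SLC24A5. SLC24A5 ranged from 50.1 to 68.6 CPM in the MP41 DMSO libraries. In the FHT-1015 experiments it was at 21.9 to 39.1 CPM in 92-1 and 16.3 to 47.5 CPM in MEL202. Line against line, in a joint fit of the 36 libraries of the FHT-1015 experiments, 9 members differed between MEL202 and 92-1 in DMSO, 8 between MP41 and 92-1, and 10 between MP41 and MEL202. The shares of all genes called in the same comparisons were 52.9%, 65.0% and 56.0%, so differing between lines was common among genes. DCT was 19.9-fold higher in MP41 than in 92-1 (log2 4.32 ± 0.28 SE, edgeR adjusted p = 1.46e-14). TYR was 3.03-fold and SLC45A2 4.65-fold higher, with log2 differences of 1.60 ± 0.13 and 2.22 ± 0.12. These differences use the DMSO set of the FHT-1015 experiment of 92-1 alone, and the lines were not tested against the other set. In the 6 DMSO libraries of the IDE196 experiment, 92-1 had less DCT (1.84 ± 0.792 CPM, against 6.28 ± 1.29 in the FHT-1015 set; SD, n = 6) and less TYR (125 ± 15.6 against 336 ± 50.1 CPM). The TYR level of MEL202 in DMSO, 145.5 ± 20.9 CPM, lay below all libraries of the first set of 92-1 and overlapped the second. MLANA and GPR143 did not pass the test between MP41 and 92-1, with adjusted p = 0.259 and 0.171, and SLC24A5 did not pass it between MEL202 and 92-1 (adjusted p = 0.761). With limma-voom, MLANA (adjusted p = 0.0317) and GPR143 (6.58e-05) were called between MP41 and 92-1. TYRP1 between MP41 and MEL202 was not called without the low-count filter (adjusted p = 0.103).

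The fitted OCA2 difference between MP41 and 92-1 rests on the few reads in MP41. In 92-1 the DMSO libraries held 38.8 to 50.8 CPM of OCA2, and in MEL202 7.93 to 18.4 CPM. In MP41 they held 0, 0 and 0.359 CPM at 4 h and 0.379, 0.0579 and 0.16 CPM at 24 h. The ranges of the 3 lines did not overlap. OCA2 fell under the low-count filter in the MP41 experiment, so it has no test of a drug effect there, and 9 members were tested in MP41.

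Between 24 h and 4 h of DMSO alone, the edgeR test called 1 member, in MP41, where other tools called more. At an adjusted p under 0.05 (edgeR quasi-likelihood test), no member differed between 24 h and 4 h of DMSO in MEL202 or in either experiment on 92-1. At an unadjusted p under 0.05 the counts were 0 members in MEL202, 1 in the FHT-1015 experiment of 92-1 and 2 in the IDE196 experiment. Over all genes, 0.0%, 0.344% and 0.266% were called in that order. DESeq2 called 0, 1 and 1 members, and limma-voom 0, 1 and 0. In MP41, TRPM1 was 2.12-fold higher at 24 h than at 4 h (log2 1.08 ± 0.23 SE, adjusted p = 0.034), where 2.59% of all genes were called. DESeq2 called 2 members in MP41 and limma-voom 5 of the 9 tested. The shares of all genes given here are those of the edgeR test, so these counts have no matching share. TYRP1 in MP41 was at 5375 ± 403 CPM at 4 h and 3644 ± 726 at 24 h in DMSO (SD, n = 3), with an edgeR adjusted p = 0.0594, and was called with DESeq2 (adjusted p = 0.0101) and limma-voom (3.6e-06).

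After 24 h of FHT-1015, 9 of the 10 members were lower than in DMSO in each of the 3 lines, and OCA2 was lower in 92-1. The call rule is an edgeR adjusted p under 0.05 over all genes tested. In 92-1, 10 of 10 members were lower, where 31.4% of all genes were called lower and 29.2% higher. In MEL202, 9 of 10 were lower, against 10.1% of all genes lower and 8.69% higher. In MP41, 9 of the 9 tested were lower, against 18.7% and 17.4%. In these 3 comparisons each treated replicate of each called member lay below each DMSO replicate. How many of all genes were separated in this way was not counted. The median log2 change over the members was -3.11 in 92-1, -2.15 in MEL202 and -2.11 in MP41, while over all genes it was -0.00, -0.01 and 0.07. The test cannot separate less RNA per cell from fewer pigmented cells in bulk RNA.

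**Figure D2:**
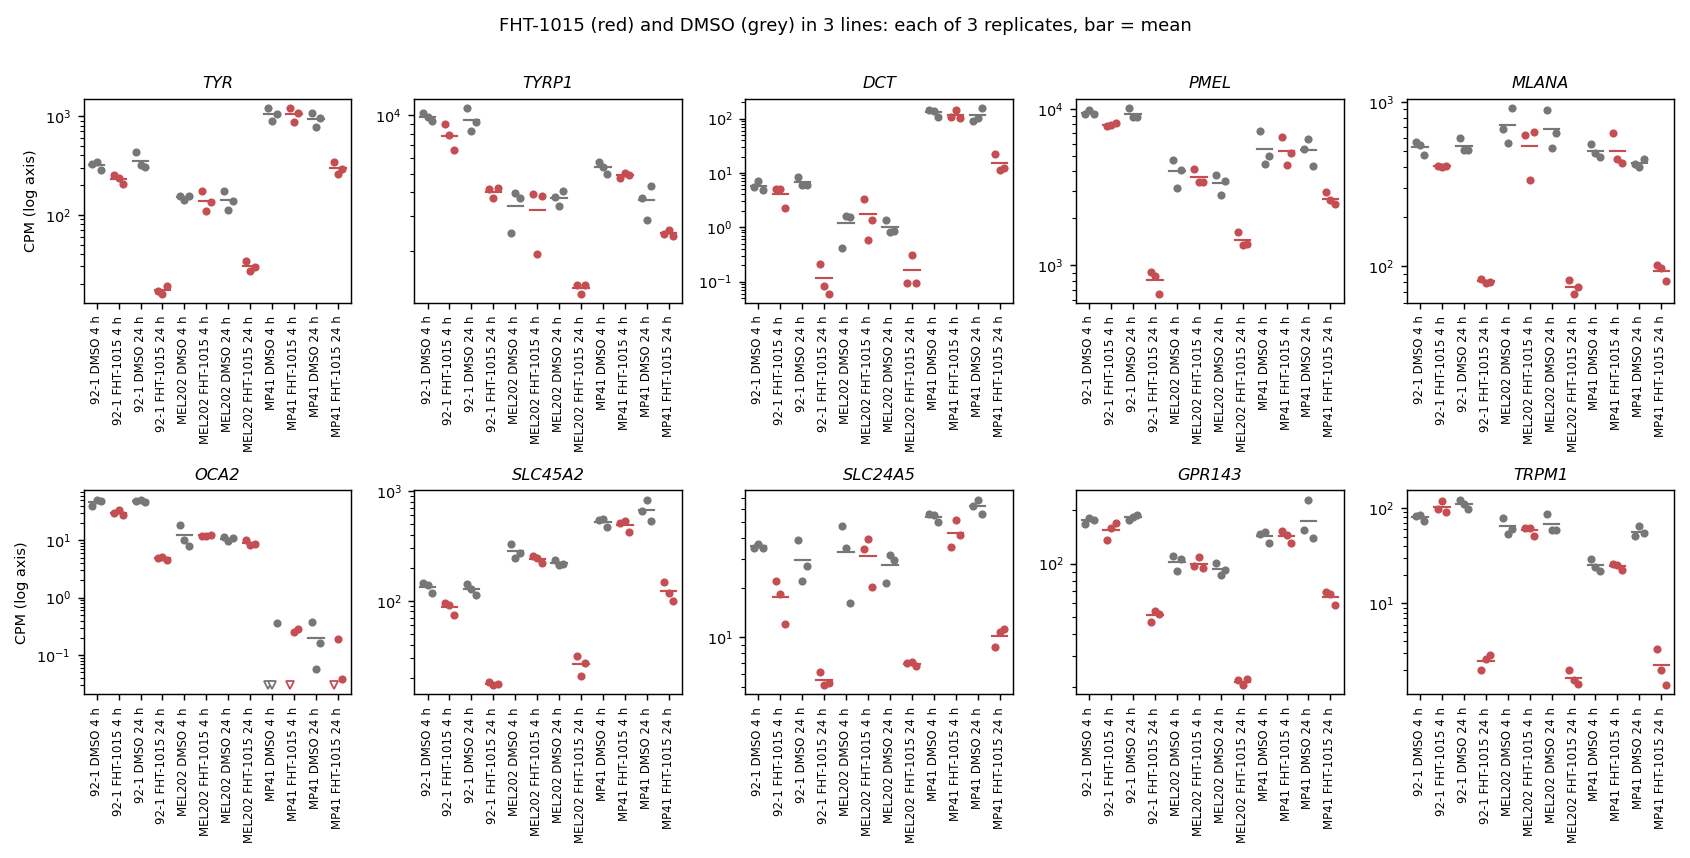
CPM (log axis) of the 10 members in each library of the 3 FHT-1015 experiments, by line, treatment and time, 3 replicates a group, with the mean as a bar and 0 reads as an open triangle. The 24 h FHT-1015 libraries lie below their DMSO libraries in each panel and line, except OCA2 in MEL202 and MP41.

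TYR, the rate-limiting enzyme of melanin synthesis, fell in each line and most in 92-1. Its CPM in the 3 replicates of 92-1 at 24 h was 429, 322 and 303 in DMSO and 16.8, 15.9 and 19.2 with FHT-1015. The treated libraries were all more than an order of magnitude below the controls, 20.5-fold on average (log2 -4.36 ± 0.14 SE, adjusted p = 3.14e-12). In MEL202 it went from 174, 112 and 137 CPM to 34, 27 and 29.4, which is 4.62-fold lower (log2 -2.21 ± 0.23, adjusted p = 2.65e-05). In MP41, the line with the highest TYR, it went from 1075, 786 and 963 CPM to 342, 262 and 288, which is 3.05-fold lower (log2 -1.61 ± 0.19, adjusted p = 2.69e-05). The treated MP41 libraries, at 262 to 342 CPM, overlapped the DMSO libraries of 92-1 in the FHT-1015 experiment (286 to 429 CPM) in TYR level and lay above those of the IDE196 experiment (115 to 156 CPM). TYRL, the pseudogene that shares part of TYR's sequence, had 0 reads in the treated 92-1 libraries and at most 3 in the treated MP41 libraries.

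TYRP1, the most abundant enzyme of the family, fell less than TYR. In 92-1 its CPM at 24 h was 10880, 8290 and 9220 in DMSO and 4149, 3755 and 4188 with FHT-1015, 2.38-fold lower (log2 -1.25 ± 0.11 SE, adjusted p = 1.63e-07). In MEL202 it went from 3787, 3394 and 4049 to 1322, 1196 and 1324 CPM, 2.88-fold lower (log2 -1.53 ± 0.26, adjusted p = 0.001). The MP41 groups were closer, at 3739, 2876 and 4318 CPM in DMSO and 2423, 2566 and 2390 with the drug. That is a 1.43-fold fall (log2 -0.52 ± 0.16, adjusted p = 0.0254), the smallest of the members' called changes at 24 h of FHT-1015. It was not called without DMSO replicate 1 at 24 h (adjusted p = 0.0698) or without FHT-1015 replicate 1, 2 or 3 at 24 h (0.0535, 0.0544 and 0.0801), nor with only the 6 samples compared (0.0904).

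DCT, the tautomerase of the family, was close to the limit of detection after treatment in 92-1 and MEL202. In 92-1 it had 178, 96 and 97 reads in the DMSO libraries at 24 h and 3, 1 and 1 with FHT-1015. The ratio of summed reads per scaled library size was 60.1-fold, with an exact 95% interval of 25.5 to 186 for counting error only. With the treated libraries set at the floor of 3 reads each, the ratio was 33.4-fold. The fitted log2 change was -5.81 ± 0.47 SE (edgeR adjusted p = 4.45e-08), and -6.50 without FHT-1015 replicate 1. In MEL202, 35, 14 and 28 reads stood against 2, 8 and 2 with the drug, a ratio of 5.71-fold (3.09 to 11.5), with an edgeR adjusted p = 0.0389. That call was lost without DMSO replicate 1, 2 or 3 (adjusted p = 0.123, 0.0615 and 0.0756) and without FHT-1015 replicate 1 or 3 (0.138 and 0.147), all at 24 h. It was also lost in edgeR with replicate number as a block in the fit (adjusted p = 0.0614). Without FHT-1015 replicate 2, which held the 8 reads, the log2 change went from -2.48 to -3.32. In MP41, where DCT was abundant, it went from 89.2, 103 and 155 CPM to 22.2, 11.4 and 12.3, which is 7.3-fold lower (log2 -2.87 ± 0.30, adjusted p = 8.72e-06). No treated library overlapped a control library in any of the 3 lines.

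PMEL, the fibril protein, fell in each line. In 92-1 at 24 h it stood at 10110, 8927 and 8953 CPM in DMSO and at 909, 854 and 660 with FHT-1015, 11.7-fold lower (log2 -3.55 ± 0.12 SE, adjusted p = 3.14e-12). In MEL202 it was 3811, 2803 and 3447 against 1635, 1352 and 1374 CPM, 2.28-fold lower (log2 -1.19 ± 0.21, adjusted p = 0.00138). In MP41 it was 5575, 6468 and 4326 against 2931, 2605 and 2471 CPM, 1.95-fold lower (log2 -0.96 ± 0.21, adjusted p = 0.00308). The treated and DMSO groups did not overlap in any of the 3 lines, and 92-1 had the widest gap. CDK2, a cell-cycle kinase gene that overlaps PMEL, fell as well, in 92-1 from 457 to 37 CPM, in MEL202 from 200 to 36.2 CPM, and in MP41 from 267 to 30.2 CPM.

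MLANA fell in each of the 3 lines. In 92-1 it went from 600, 506 and 507 CPM to 83.8, 79.6 and 80.1, 6.71-fold lower (log2 -2.75 ± 0.09 SE). In MEL202, 888, 523 and 644 CPM became 82.6, 68.2 and 74.3, 9.02-fold lower (log2 -3.17 ± 0.31), and in MP41, 418, 400 and 448 became 102, 97.5 and 81.2, 4.33-fold lower (log2 -2.11 ± 0.19). The 3 treated groups came to lie between 68.2 and 102 CPM.

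Among the transporters, SLC45A2 and SLC24A5 fell in each line and OCA2 fell in 92-1. SLC45A2 in 92-1 went from 142, 128 and 112 CPM to 18.2, 17.1 and 17.3, 7.36-fold lower (log2 -2.88 ± 0.12 SE, adjusted p = 3.05e-11). It was 8.22-fold lower in MEL202 (log2 -3.04 ± 0.22) and 5.29-fold lower in MP41 (log2 -2.40 ± 0.19). MP41 had the most SLC45A2, 677 ± 150 CPM in DMSO at 24 h (SD, n = 3), and kept 122 ± 25.7 CPM after treatment, near the DMSO level of 92-1. SLC24A5 in 92-1 went from 39.1, 21.9 and 27 CPM to 6.2, 5.13 and 5.26, 5.37-fold lower (log2 -2.43 ± 0.22, adjusted p = 1.5e-07). In MEL202 it was 3.91-fold lower (log2 -1.97 ± 0.35) and in MP41 5.85-fold lower (log2 -2.55 ± 0.17). With the sum of the 2 stranded columns in place of the unstranded counts, SLC24A5 was still called in each line, with smaller log2 changes: -1.94 for 92-1, -1.51 for MEL202, -1.68 for MP41. MYEF2, which shares exon bases with SLC24A5, went the other way in 92-1, from 25.3 ± 1.24 to 42.6 ± 6.22 CPM (log2 0.73 ± 0.12, adjusted p = 8.08e-05), and was not called in MEL202 (log2 0.63 ± 0.30, adjusted p = 0.168) or MP41 (log2 -0.35 ± 0.54, adjusted p = 0.639).

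OCA2 was called lower in 92-1 and was not called in MEL202. In 92-1 its CPM at 24 h was 48, 50.8 and 46.2 in DMSO and 4.94, 5.13 and 4.48 with FHT-1015, 10.1-fold lower (log2 -3.34 ± 0.13 SE, adjusted p = 1.77e-11). In MEL202 it was 11.2, 9.59 and 10.8 in DMSO and 10.1, 8.31 and 8.61 with FHT-1015, and these groups overlapped (log2 -0.21 ± 0.28, adjusted p = 0.675). In MP41 the libraries had 8, 1 and 4 reads in DMSO and 0, 5 and 1 with FHT-1015, at or near the floor of 3 reads, and no fold is given.

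TRPM1, the cation channel, had the largest fall of the members with more than a few reads. In 92-1 at 24 h it went from 123, 111 and 98.3 CPM to 2.02, 2.6 and 2.87, 44.6-fold lower (log2 -5.48 ± 0.16 SE, adjusted p = 1.76e-12). In MEL202 it went from 86.2, 58.7 and 59.6 CPM to 1.99, 1.56 and 1.44, 40.4-fold lower (log2 -5.33 ± 0.28, adjusted p = 9.17e-08). In MP41, 50.6, 64.2 and 55.2 CPM became 3.35, 2.02 and 1.39, 24.4-fold lower (log2 -4.61 ± 0.28, adjusted p = 1.3e-07). The 9 treated libraries all held under 4 CPM. The MP41 controls had themselves gone up between 4 h and 24 h, and the treated libraries were also below the 4 h controls, which held 22 to 29.6 CPM.

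GPR143, the melanosomal receptor, fell 3.64-fold in 92-1, from 176, 184 and 188 CPM to 46.9, 54.1 and 52 (log2 -1.86 ± 0.10 SE, adjusted p = 2.6e-10). It fell 4.27-fold in MEL202, from 101, 85.8 and 92.4 CPM to 21.8, 20.5 and 22.2 (log2 -2.09 ± 0.18), and 2.56-fold in MP41, from 155, 230 and 139 CPM to 69.2, 67.5 and 58.6 (log2 -1.35 ± 0.17). Together the members went from 1.89% to 2.08% of reads in 92-1 DMSO libraries, both times included, to 0.491% to 0.519% after 24 h of FHT-1015. In MEL202 the 24 h shares were 0.73% to 0.947% and 0.291% to 0.328%, and in MP41 1.17% to 1.25% and 0.595% to 0.653%.

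**Figure D3:**
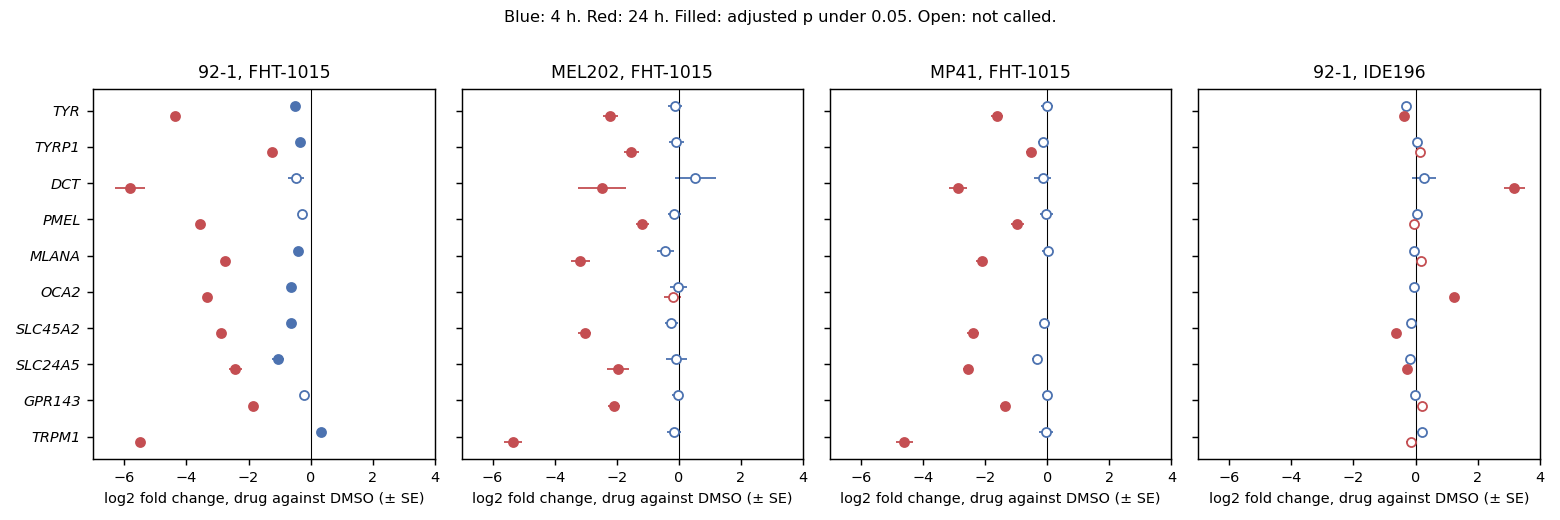
Log2 fold change of each member, drug against DMSO, with its standard error, at 4 h (blue) and 24 h (red) in the 4 experiments, filled where called at an edgeR adjusted p under 0.05. At 24 h of FHT-1015 the called members lie to the left, 10 in 92-1, 9 in MEL202 and 9 in MP41, and OCA2 in MEL202 (-0.21) is not called. The value farthest left, -5.81 for DCT in 92-1, rests on 5 treated reads, while IDE196 at 24 h moves DCT to 3.17 and OCA2 to 1.25.

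At 4 h of FHT-1015, members had moved in 92-1 and were not called in the other lines. In 92-1, 6 members were lower (TYR, TYRP1, MLANA, OCA2, SLC45A2 and SLC24A5) and 1 was higher (TRPM1), where 16.7% of all genes were called lower and 12.9% higher. Each treated replicate lay below each DMSO replicate for 7 members, the 6 named and PMEL, and above for TRPM1. The share of all genes separated in this way was not counted, so the 7 are a description only. The changes were small beside those at 24 h, with a median log2 change of -0.44 over the 10 members.

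SLC24A5 had the largest change in the unstranded counts at 4 h in 92-1, from 35.1, 37.1 and 35 CPM to 22.1, 18.4 and 12.1 (log2 -1.04 ± 0.19 SE, edgeR adjusted p = 0.000738). From the stranded columns summed, its log2 change was -0.68, still called, and close to those of OCA2 and SLC45A2. MYEF2, its overlapping neighbour, was lower too, at 24.1 ± 2.03 CPM in DMSO and 18.8 ± 2.58 with FHT-1015 (SD, n = 3, edgeR adjusted p = 0.03), and its part in the SLC24A5 change was not tested. OCA2 (log2 -0.63 ± 0.11) and SLC45A2 (log2 -0.63 ± 0.11) were lower by the same amount, with adjusted p = 0.000434 and 0.000351. TYR went from 331, 344 and 286 CPM to 251, 239 and 206 (log2 -0.49 ± 0.12, adjusted p = 0.0049), and MLANA from 568, 547 and 478 to 409, 404 and 409 (log2 -0.41 ± 0.08, adjusted p = 0.00147). These 5 members kept their call without any 1 library, and SLC45A2 and SLC24A5 kept it as well when all 48 libraries entered 1 fit, which left 2 members called lower.

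TYRP1 and TRPM1 were near the threshold at 4 h in 92-1. TYRP1 was 1.28-fold lower (log2 -0.35 ± 0.11 SE, edgeR adjusted p = 0.0276) and was not called without DMSO replicate 1 or 2 or FHT-1015 replicate 2 or 3 at 4 h, with adjusted p = 0.0805, 0.0719, 0.0671 and 0.116. TRPM1 was 1.26-fold higher, from 82.5, 83.7 and 73.9 CPM to 97.8, 120 and 90.2 (log2 0.34 ± 0.11, adjusted p = 0.0328). It was not called without DMSO replicate 1, 2 or 3 or FHT-1015 replicate 2 at 4 h, with adjusted p = 0.0635, 0.0601, 0.132 and 0.206. DCT, PMEL and GPR143 did not pass the test, with log2 changes of -0.47 ± 0.27, -0.28 ± 0.10 and -0.21 ± 0.09 and adjusted p = 0.2, 0.0558 and 0.0954. PMEL was called lower in 6 of 9 alternative fits, among them DESeq2 (adjusted p = 0.0402) and limma-voom (0.00505), and without DMSO replicate 1 (0.0484) or FHT-1015 replicate 1 (0.0388) or 3 (0.0133) at 24 h. GPR143 was called lower with limma-voom (adjusted p = 0.0208), with the replicate block (0.0265) and without FHT-1015 replicate 3 at 4 h (0.0331).

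In MEL202 at 4 h the edgeR test called 0 of 10 members, with 0 at an unadjusted p under 0.05 and 0 with DESeq2 or limma-voom. Over all genes 0.157% were called higher and 0.522% lower. The log2 changes ran from -0.44 (MLANA, SE 0.28) to 0.53 (DCT, SE 0.67). In MP41 at 4 h 0 of 9 were called, also with 0 at an unadjusted p under 0.05 and 0 with DESeq2 or limma-voom, where 0.0708% of all genes were called higher and 0.154% lower. SLC24A5 had the largest change there, log2 -0.32 ± 0.16. SOX10 had fallen by 4 h in each of the 3 lines, as given with the regulators.

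The FHT-1015 effect at 24 h was larger than at 4 h for 10 of 10 members in 92-1, 8 of 10 in MEL202 and 8 of 9 in MP41, by the difference of the 2 effects in each experiment. The shares of all genes with such a difference in either direction were 45.5%, 6.89% and 18.6%. By edgeR, the exceptions in MEL202 were DCT (log2 difference -3.01 ± 1.02 SE, adjusted p = 0.1) and OCA2 (-0.18 ± 0.39, adjusted p = 0.86), and in MP41 it was TYRP1 (-0.38 ± 0.23, adjusted p = 0.28). The DCT difference was called in 3 of 6 alternatives, without the low-count filter (adjusted p = 0.0401), with DESeq2 (0.0366) and with limma-voom (0.0174), and the TYRP1 difference with limma-voom (0.0051). The PMEL difference in MEL202 was not called without the filter (adjusted p = 0.102). TRPM1 in 92-1 had the largest difference, -5.82 ± 0.19 on the log2 scale, since it was higher at 4 h and lower at 24 h. In MEL202 and MP41 the differences for TRPM1 were -5.18 ± 0.35 and -4.56 ± 0.35.

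The size of the 24 h effect differed among the 3 lines for 5 members: TYR, PMEL, OCA2, TYRP1 and DCT. The test was a joint F-test over the 36 libraries, and 12% of all genes were called by it. OCA2 entered this fit although it had 0 to 8 reads in each MP41 library, so its MP41 effect is hardly measured, and only its difference between MEL202 and 92-1 is read here. Other tools, scalings and filters called 6 or 7 members. At 4 h it called 0 members, with 1 (SLC24A5) at an unadjusted p under 0.05, 1 by limma-voom and 1.38% of all genes. TYR (adjusted p = 1.78e-08) and PMEL (adjusted p = 2.11e-08) stood out. Set line against line, 3 members differed between MEL202 and 92-1, 3 between MP41 and 92-1, and 3 between MP41 and MEL202, against 5.35%, 8.47% and 5.53% of all genes. These line pairs were tested after the joint test had been seen, and they share libraries.

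TYR fell less in MEL202 than in 92-1 by 2.12 ± 0.26 SE on the log2 scale (edgeR adjusted p = 1.69e-06) and less in MP41 than in 92-1 by 2.66 ± 0.26 (adjusted p = 1.65e-08). For PMEL the same differences were 2.32 ± 0.26 (adjusted p = 2.94e-07) and 2.49 ± 0.26 (adjusted p = 4.54e-08). Between MP41 and MEL202 neither passed the test (TYR 0.54 ± 0.26, PMEL 0.16 ± 0.26, adjusted p = 0.234 and 0.777). OCA2 fell less in MEL202 than in 92-1 by 3.09 ± 0.47 (adjusted p = 4.38e-05). The DCT difference between MP41 and 92-1, 2.86 ± 0.87 (adjusted p = 0.0336), rests on the 1 to 3 reads in treated 92-1.

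TYRP1 (0.96 ± 0.27 SE), MLANA (1.00 ± 0.29) and GPR143 (0.68 ± 0.20) fell less in MP41 than in MEL202 on the log2 scale, with edgeR adjusted p = 0.0317, 0.0349 and 0.0385. The GPR143 difference was not called with another scaling, relative log expression (adjusted p = 0.0613), or without the low-count filter (0.185). SLC45A2, SLC24A5 and TRPM1 were not called in the joint test, with adjusted p = 0.229, 0.483 and 0.186, nor were MLANA (0.0519) and GPR143 (0.0547). Between MEL202 and 92-1 the DCT effect was called in 3 of 5 alternatives, with adjusted p = 0.000491 without the filter, 0.00867 with DESeq2 and 0.0231 with limma-voom. Limma-voom also called TYRP1 and MLANA there, TYRP1, MLANA and GPR143 between MP41 and 92-1, and SLC45A2 between MP41 and MEL202.

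IDE196 in 92-1 gave a different pattern, with 2 members higher and 3 lower at 24 h. At 4 h the edgeR test called 0 of 10 members, with 0 at an unadjusted p under 0.05 and 0 with DESeq2 or limma-voom, where 6.89% of all genes were called higher and 9.3% lower. At 24 h, 28.7% of all genes were called higher and 29.4% lower, so 5 of 10 members is about the share of all genes. DCT and OCA2 were higher, and SLC45A2, TYR and SLC24A5 were lower.

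DCT rose from 68, 23 and 30 reads (3.17, 1.16 and 1.36 CPM) in DMSO to 452, 298 and 281 reads (21.1, 15.7 and 16.7 CPM) with IDE196, 9.03-fold higher (log2 3.17 ± 0.34 SE, edgeR adjusted p = 3.63e-07). OCA2 rose from 31.4, 29.7 and 23.1 CPM to 67.6, 75.2 and 63.3, 2.37-fold higher (log2 1.25 ± 0.13, adjusted p = 1.9e-07). Neither group overlapped its controls, and both calls held without any 1 library. Without DMSO replicate 4 at 24 h, the library with 68 reads, the log2 change of DCT was 3.76. Their effects at 24 h exceeded those at 4 h by 2.89 ± 0.51 and 1.30 ± 0.18 on the log2 scale (adjusted p = 0.000364 and 3.41e-05), and these were the 2 members called by edgeR for that difference, against 30.7% of all genes. SLC45A2 was called for it as well without the low-count filter (adjusted p = 0.0161) and with limma-voom (0.0291).

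**Figure D4:**
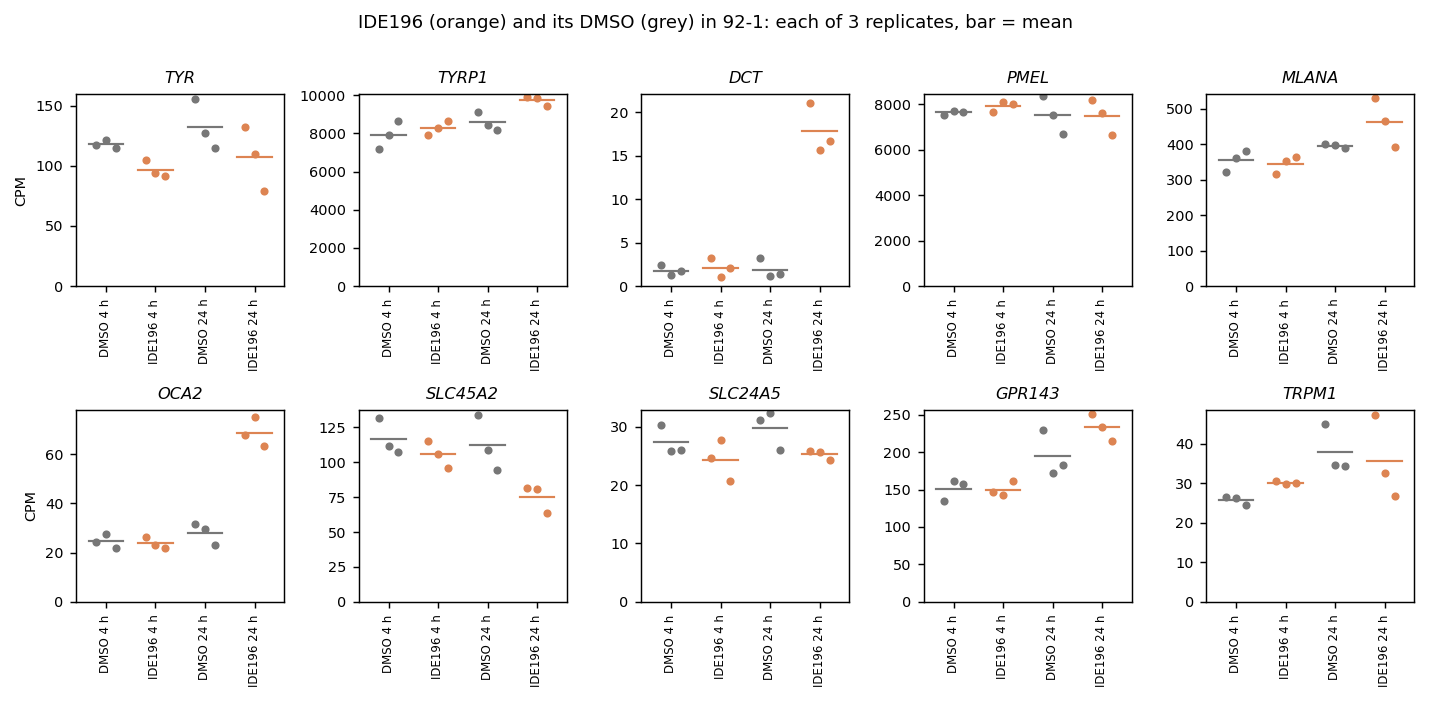
CPM (linear axis from 0) of the 10 members in the 12 libraries of the IDE196 experiment in 92-1, 3 replicates a group, with the mean as a bar. DCT (15.7 to 21.1 CPM) and OCA2 (63.3 to 75.2 CPM) at 24 h of IDE196 lie above the other libraries, and PMEL at 24 h (6657 to 8211 CPM) overlaps its DMSO libraries.

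SLC45A2 fell from 134, 109 and 94.3 CPM to 81.8, 80.6 and 63.6 at 24 h of IDE196, 1.54-fold (log2 -0.62 ± 0.13 SE, edgeR adjusted p = 0.00048), with no overlap. TYR (log2 -0.36 ± 0.14, adjusted p = 0.0408) and SLC24A5 (log2 -0.28 ± 0.12, adjusted p = 0.0489) were just inside the threshold. TYR was at 156, 127 and 115 CPM in DMSO and 132, 110 and 79.2 with IDE196, so the groups overlapped, and SLC24A5 at 31.2, 32.3 and 26 against 26, 25.6 and 24.4. The TYR call was lost without DMSO replicate 4 or 5 at 24 h, DMSO replicate 6 at 4 h, or IDE196 replicate 2 or 3 at 24 h (adjusted p from 0.0549 to 0.216 in these fits). It was also lost with library size alone (0.0723), with only the 6 samples compared (0.0502) and with all 48 libraries in 1 fit (0.186). The SLC24A5 call was lost in 7 of 12 such fits: without DMSO replicate 6 or IDE196 replicate 1 at 4 h, DMSO replicate 4 or 5 at 24 h, or IDE196 replicate 1, 2 or 3 at 24 h, with adjusted p up to 0.157. It was also lost in 6 of 8 other settings, among them DESeq2 (adjusted p = 0.0507), relative log expression scaling (0.0524), no low-count filter (0.0807) and the sum of the stranded columns (0.21). TYRP1, PMEL, MLANA, GPR143 and TRPM1 did not pass the test, with log2 changes of 0.13 ± 0.10, -0.05 ± 0.10, 0.18 ± 0.10, 0.21 ± 0.11 and -0.14 ± 0.16. GPR143 was called higher with limma-voom (adjusted p = 0.035), with library size alone (0.0435) and without DMSO replicate 4 at 24 h (0.0131). MLANA was called higher without IDE196 replicate 3 at 24 h (adjusted p = 0.0255), and TRPM1 lower without IDE196 replicate 1 at 24 h (log2 -0.40, adjusted p = 0.0174).

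Set against each other in one fit of the 24 libraries of 92-1, the effects of FHT-1015 and IDE196 differed at 24 h for 10 of 10 members, where 33.0% of all genes were called. Each member was lower with FHT-1015 relative to IDE196, by 1.39 ± 0.15 (TYRP1) to 5.35 ± 0.25 (TRPM1) on the log2 scale for the 9 members other than DCT. DCT differed by 9.0 ± 0.65, a fitted value that depends on 5 reads. At 4 h the effects differed for 4 members, SLC24A5, OCA2, TYRP1 and SLC45A2, with adjusted p from 0.00681 to 0.0446, against 24.6% of all genes. The SLC45A2 difference at 4 h was not called with relative log expression scaling (adjusted p = 0.055) or with library size alone (0.0673). MLANA was called with DESeq2 (adjusted p = 0.0452), limma-voom (0.0176) and library size alone (0.0488), and PMEL with limma-voom (0.0293). The drugs were given in separate experiments, and their DMSO sets differed for 7 members, where 60.4% of all genes were called. Of the 7, TYRP1 was not called without the filter (adjusted p = 0.0777), and SLC45A2 was called as well with library size alone (0.0184). DCT was 3.35-fold, TRPM1 2.95-fold and TYR 2.62-fold lower in the DMSO libraries of the IDE196 experiment. Each drug is therefore compared with its own DMSO set.

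Of the 29 other pigmentation genes in 5 lists, 24 were lower and 1 higher at 24 h of FHT-1015 in 92-1, where 28 were tested and 31.4% of all genes were lower and 29.2% higher. In MEL202, 10 were lower and 1 higher of 29, against 10.1% and 8.69% of all genes, and in MP41, 14 and 1 of 29, against 18.7% and 17.4%. At 4 h, 11 were lower and 1 higher in 92-1, against 16.7% and 12.9% of all genes. In each of MEL202 and MP41, 1 was lower and 0 higher at 4 h, where 0.522% and 0.154% of all genes were lower. Their median log2 change at 24 h was -0.80 in 92-1, -0.33 in MEL202 and -0.41 in MP41, smaller in size than that of the members. The lists were written with earlier results on these libraries known.

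**Figure D5:**
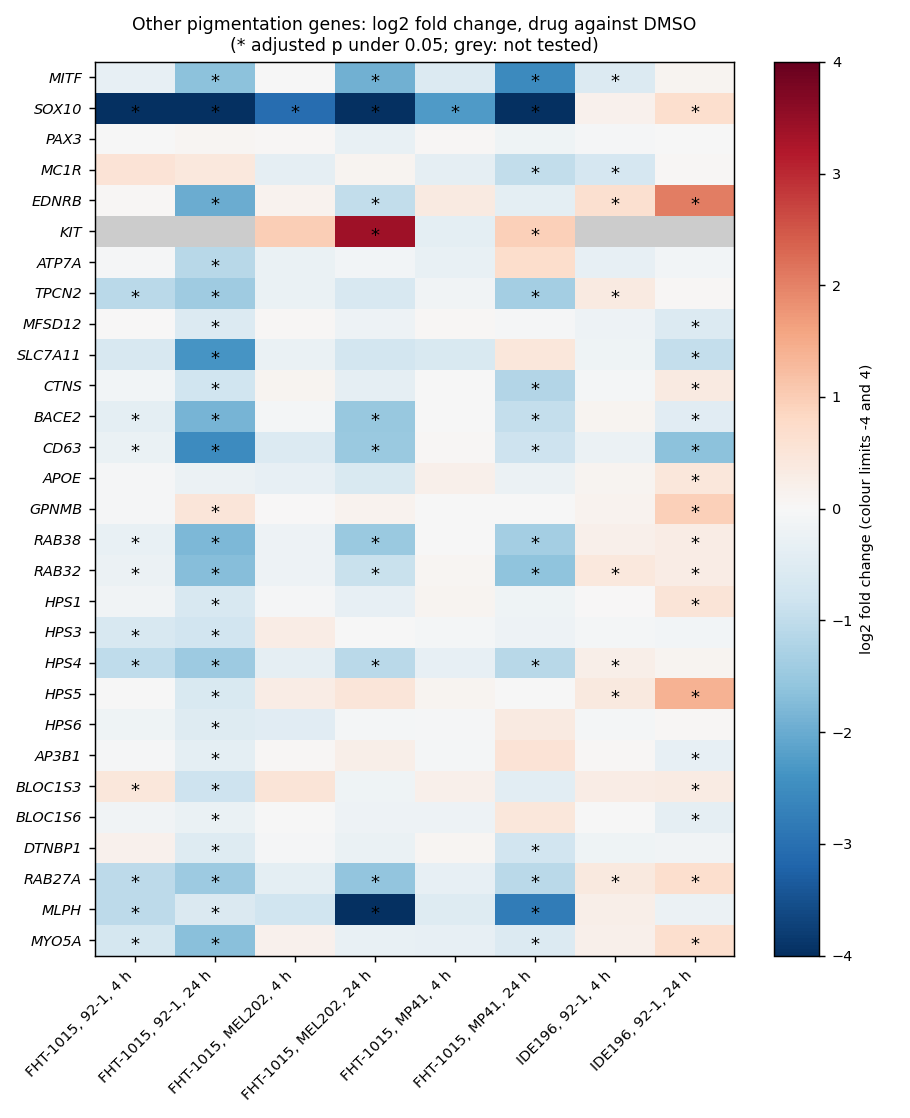
Log2 fold change of 29 other pigmentation genes (rows, in list order from regulators to transport) in 8 comparisons of drug with DMSO (columns), with an asterisk where called at an edgeR adjusted p under 0.05 and grey where not tested. SOX10 is blue in the 6 FHT-1015 columns, with changes of -2.26 to -5.43, where colour limits are -4 and 4, and MITF is called in the 24 h FHT-1015 columns.

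Of the 3 regulators, SOX10 was lower at both times of FHT-1015 and MITF at 24 h, in each line. SOX10, a lineage factor that acts upstream of MITF, was called in 7 of the 8 drug comparisons. At 4 h of FHT-1015 it fell from 443 ± 32.9 to 14.8 ± 3.5 CPM in 92-1 (SD, n = 3; log2 -4.94 ± 0.15 SE, edgeR adjusted p = 2.34e-11), while MEL202 went from 507 ± 143 to 62.2 ± 15 CPM and MP41 from 417 ± 34.4 to 87 ± 13.6 CPM. At 24 h it stood at 22.5, 13.8 and 40.8 CPM in the treated groups of the 3 lines. MITF was not called at 4 h of FHT-1015 (adjusted p = 0.0719, 0.996 and 0.622) and had fallen by 24 h: from 401 ± 68 to 129 ± 8.17 CPM in 92-1, while in MEL202 383 ± 67.4 became 100.5 ± 11.4 CPM and in MP41 444 ± 116 became 72.7 ± 5.06 CPM. PAX3, another lineage factor, was called in 0 of 8 comparisons. With IDE196, MITF was lower at 4 h (log2 -0.56 ± 0.09, adjusted p = 0.000209) and not called at 24 h, and SOX10 was higher at 24 h (log2 0.67 ± 0.08, adjusted p = 1.22e-06).

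Among the receptors, EDNRB, the endothelin receptor of the melanocyte lineage, was called in 4 comparisons. It fell at 24 h of FHT-1015 in 92-1 (331 ± 59.5 to 84.5 ± 3.9 CPM) and MEL202 (264 ± 43.2 to 132 ± 19.9) and rose at 24 h of IDE196 (274 ± 70.1 to 1169 ± 126). TPCN2, a cation channel of the melanosome, led the transport list with 4 calls. It fell in 92-1 at both times of FHT-1015 (log2 -1.07 ± 0.09 and -1.42 ± 0.09) and in MP41 at 24 h (-1.37 ± 0.19), and rose at 4 h of IDE196 (0.34 ± 0.10).

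BACE2, a protease that cleaves PMEL, and CD63, a tetraspanin that sorts it, were each called in 5 comparisons and lower in each. At 24 h of FHT-1015, CD63 fell from 1194 ± 116 to 212 ± 3.42 CPM in 92-1, while in MEL202 802 ± 194 became 284 ± 9.95 CPM and in MP41 763 ± 156 became 409 ± 42.3 CPM. BACE2 fell by 1.86, 1.52 and 0.94 on the log2 scale in the same comparisons. CD63 was also lower at 24 h of IDE196 (1155 ± 71.7 to 385 ± 95.1 CPM), where GPNMB, a relative of PMEL, was higher (1653 ± 181 to 3328 ± 286). GPNMB was the 1 list member higher at 24 h of FHT-1015 in 92-1 (log2 0.50 ± 0.07), and it was KIT in MEL202 (0.137 ± 0.0376 to 1.5 ± 0.337 CPM) and MP41 (99.9 ± 24.9 to 187.5 ± 19.1).

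The 14 genes of cargo delivery and transport were all lower at 24 h of FHT-1015 in 92-1, with 5 lower in MEL202 and 7 in MP41, where 31.4%, 10.1% and 18.7% of all genes were lower. RAB27A, which ties melanosomes to the myosin motor, and RAB32, which delivers cargo to them, were each called in 6 comparisons. RAB27A fell from 22.8 ± 4.75 to 8.5 ± 1.62 CPM in 92-1 and from 36.9 ± 0.585 to 12.1 ± 0.547 in MEL202 at 24 h. RAB32 fell from 151 ± 7.57 to 47.6 ± 1.97 CPM in 92-1 and from 155 ± 28.9 to 48.7 ± 9.23 in MP41. The 6 calls of RAB27A and of RAB32 were not all falls and include both times of IDE196. At 4 h of IDE196, 4 of the 14 genes were higher and 0 lower, with RAB27A and RAB32 among the 4. With IDE196 at 24 h, 7 of these 14 genes were higher and 2 lower. Over the 5 lists, IDE196 gave 6 higher and 2 lower at 4 h, of 28 tested, against 6.89% and 9.3% of all genes. At 24 h it gave 12 higher and 6 lower, against 28.7% and 29.4%, so the total called is near the share of all genes.

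Across the 16 group means, the members varied together to unequal degrees. Each group's log2 CPM was taken relative to the DMSO mean of its own experiment, and Pearson's r was computed over 16 points that share controls within an experiment, so it is a description. Over the 45 pairs of members r ran from 0.544 (OCA2 with SLC45A2) to 0.981 (PMEL with TYR), with a median of 0.86. The lowest values, up to 0.650, all belonged to pairs with OCA2. The MP41 groups are 4 of the 16 points, with 0 to 8 reads of OCA2 per library. With 0.5 CPM added before the logarithm, OCA2 can hardly move in them. In MEL202 at 24 h, OCA2 averaged 10.5 CPM in DMSO and 9 CPM with FHT-1015, and was not called. At 24 h of IDE196 it rose from 28 to 68.7 CPM on average, while SLC45A2 fell from 112 to 75.3 CPM. What part each of these has in the low values was not tested. Among 10482 other protein-coding genes, the one most like each member was TBC1D7 for TYR (r = 0.970), CA14 for TYRP1 (0.962), CLMN for DCT (0.961) and IQCK for PMEL (0.962). It was TSPAN10 for MLANA (0.986), CD44 for OCA2 (0.958), BIRC7 for SLC45A2 (0.993) and KCNAB2 for SLC24A5 (0.982). For GPR143 it was RAB38 (0.971), a GTPase of the cargo list, and for TRPM1 it was KCNIP3 (0.984).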

How the data were processed

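The authors deposited raw counts of reads per gene, one file per library, with 3 count columns as STAR writes them (both strands together, then each strand). Libraries were made from poly-A RNA with an NEBNext Ultra kit, which does not mark strand, per the labels' protocols. The submitters' processing notes name the build hg38 and the tool limma. The annotation is not given in the sources used here. The unstranded counts were used, without the 4 summary rows and 92 spike-in rows, which held 0 reads. Of reads in genes, ambiguous or outside genes, 9.83% to 12.5% per library were ambiguous and left out.

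Symbols and positions came from GENCODE 29 by Ensembl identifier without version (58597 of 58870 genes), and promoter windows from RefSeq. Each experiment of 12 libraries was fitted with edgeR 4.0.16 (R 4.3.3): TMM scaling, filterByExpr (minimum count 10), group means, quasi-likelihood F-tests and Benjamini-Hochberg adjustment over all genes tested, with calls at 0.05. Scripts were tested on simulated data. Standard errors are the log2 change over the square root of F. CPM use 1 TMM scale over 48 libraries, and FPKM divide by exon length. Alternatives included DESeq2 1.42.0 and limma 3.58.1 (voom), other scalings, no filter, other sets of libraries and leaving out each library. Shares of all genes are those of the main edgeR fits and are not given for the alternatives.

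The members and lists were chosen with earlier results of these data known. All 10 members are named whatever their values, with the other pigmentation genes called in the most comparisons of each list. CDK2, MYEF2 and TYRL are named for the reads or sequence they share with members, and GPNMB, KIT, MITF and PAX3 after their values were seen.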

Additional observations from a re-analysis of the deposited data

Results flagged for a closer look

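The members listed here had an effect of the drug at 24 h that differed from the effect at 4 h, or an FHT-1015 effect at 24 h that differed among the lines, each by an edgeR test of the difference itself with an adjusted p under 0.05. Differences are 24 h minus 4 h on the log2 scale. For FHT-1015 in 92-1 they were -3.87 for TYR, -0.90 for TYRP1, -5.34 for DCT, -3.27 for PMEL and -2.34 for MLANA. In the same line they were -2.71 for OCA2, -2.25 for SLC45A2, -1.39 for SLC24A5, -1.65 for GPR143 and -5.82 for TRPM1. In MEL202 they were -2.08 for TYR, -1.44 for TYRP1, -1.04 for PMEL, -2.73 for MLANA, -2.80 for SLC45A2, -1.89 for SLC24A5, -2.05 for GPR143 and -5.18 for TRPM1. The PMEL difference in MEL202 was not called without the low-count filter (adjusted p = 0.102). In MP41 they were -1.60 for TYR, -2.72 for DCT, -0.93 for PMEL, -2.13 for MLANA, -2.31 for SLC45A2, -2.22 for SLC24A5, -1.35 for GPR143 and -4.56 for TRPM1. For IDE196 in 92-1 they were 2.89 for DCT and 1.30 for OCA2, both higher at 24 h. Among the 3 lines at 24 h of FHT-1015, the adjusted p of the joint test was 1.78e-08 for TYR, 2.11e-08 for PMEL, 7.66e-05 for OCA2, 0.0424 for TYRP1 and 0.0479 for DCT.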

How the results depend on the processing

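Counts of members lower at 24 h of FHT-1015 stayed within 1.5 times the main count under the alternatives that were run, though single calls were lost: DCT in MEL202 with the replicate block, and TYRP1 in MP41 with only the 6 samples compared (adjusted p = 0.0904). Without any 1 library, 10 members were lower in 92-1, 8 to 9 in MEL202 and 8 to 9 in MP41. Counts of members stayed within 1.5 times the main count in 183 of 192 values without 1 library and in 222 of 238 values under the other alternatives. At 4 h of FHT-1015 in 92-1, all 48 libraries in 1 fit gave 2 members lower in place of 6 and 0 higher in place of 1. Leaving out 1 library gave 5 to 7 lower and 0 to 1 higher. With IDE196 at 4 h, 1 member was lower without the low-count filter. At 24 h of IDE196, 1 member in place of 3 was lower with library size alone and with all 48 libraries in 1 fit, and 1 to 3 were lower without 1 library. Between 24 h and 4 h of DMSO, 1 member was called in 92-1 without the filter, with DESeq2 and with limma-voom. In MP41 the same settings called 2, 2 and 5 members, and in the IDE196 experiment 2 were called without the filter and 1 with DESeq2. With limma-voom, 1 member differed among lines at 4 h, and 6 differed between MEL202 and 92-1 and 6 between MP41 and 92-1 at 24 h; these line pairs were added after the data had been seen. Some values not called in the main comparison changed sign. PMEL at 24 h of IDE196 ran from -0.14 to 0.02 without 1 library (0.0231 without DMSO replicate 4 and 0.021 without IDE196 replicate 3), and TRPM1 from -0.40, called lower without IDE196 replicate 1 (adjusted p = 0.0174), to 0.02 (0.0242 without IDE196 replicate 3). TRPM1 was at 0.0155 with the sum of the stranded columns, and GPR143 between the DMSO sets at 0.0039 without the filter. The cause was not tested. The main fits did not pair samples by replicate number. Of 18 pairs of FHT-1015 and DMSO libraries with the same number, 7 correlated above 0.1 (-0.322 to 0.508). These values do not settle whether the libraries are paired. With the replicate block, DCT at 24 h in MEL202 was at -2.45 (adjusted p = 0.0614), and PMEL (adjusted p = 0.0394) and GPR143 (0.0265) were called at 4 h in 92-1. No paired analysis was run for IDE196, because its libraries share no replicate numbers with their controls and the labels state no pairing. In simulated data, log2 changes of 0.5, 1 and 2 in either direction were set at 24 h of FHT-1015. Each size was given to 66 or 67 genes of 15543 to 15913, drawn at random whatever their level. A log2 change of 1 was recovered for 7.5% of such genes in MEL202, 56.7% in MP41 and 71.6% in 92-1. Far fewer genes changed than were called in the data, so the adjusted threshold was stricter in the simulation. These shares do not give the power for the members, and a small change in MEL202 may have gone undetected.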
